A study of Mus musculus with 4 samples.

Results

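The cytokine genes described here were 10 growth factors and inflammatory mediators that tissue cells and macrophages secrete, *Csf1*, *Il34*, *Il33*, *Il6*, *Il1b*, *Tnf*, *Kitl*, *Lif*, *Osm* and *Il11*. They were chosen by name out of 23284 genes in the count tables. The rule uses no measured value, but it was written with earlier results of these data known. All 10 were found and all 10 had enough counts to be tested. RNA was sequenced in bulk from Osr1+ cells, which are connective tissue progenitors of the developing limb muscle, sorted as live GFP+ cells from E13.5 limbs of C57BL/6J mouse embryos. There were 2 Osr1 GCE/+ and 2 Osr1 GCE/GCE embryos. GCE is a knock-in of eGFP and a tamoxifen-inducible Cre at *Osr1*, so both groups carry it. The GCE/+ controls are heterozygous for *Osr1* and are not wild type, and GCE/GCE cells lack *Osr1* function. No tamoxifen treatment is named for these samples. The sort was for GFP and viability, and no step that removed blood or endothelial cells is named in the labels.

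CSF1 and IL-34 both bind the receptor CSF1R and keep macrophages alive. KIT ligand, from *Kitl*, acts on KIT of mast cells, germ cells, melanocytes and blood progenitors. TNF and IL-1β are made chiefly by activated macrophages, while IL-33 is an alarmin kept in the nuclei of stromal and endothelial cells. IL-6, LIF, OSM and IL-11 form a family that signals through gp130, the product of *Il6st*, and JAK and STAT proteins. In adult muscle, members of this family act on satellite cells and fibro-adipogenic progenitors (FAPs).

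Total counts were 52121596 to 61402140 per sample, and 3 counts, taken as the smallest readable amount, were worth 0.049 to 0.0574 CPM, the counts scaled to a common library size. Intervals on counts cover counting error only. *Osr1* itself fell from 81.9 and 79.1 CPM in the controls to 11.9 and 13.9 CPM in the mutants, as labelled. *Xist* was high in a single sample, GCE/GCE replicate 1, at 1142 CPM beside 0.572 to 2.63 CPM elsewhere, so sex was not balanced between the groups. The 10 fibroblast genes looked up, such as *Pdgfra* and *Col3a1* and with *Osr1* among them, were high in all samples, in keeping with the mesenchymal label. They summed to 21263 and 19372 CPM in GCE/+ cells and to 18461 and 16219 CPM in GCE/GCE cells. CPM are given after TMM scaling. GCE/GCE was compared with GCE/+ by edgeR's quasi-likelihood test, two-sided, and a gene was called where the Benjamini-Hochberg adjusted p over all tested genes was under 0.1, the threshold of the study. Of 15645 tested genes, 285 were called, or 1.82%, and 961 and 747 were called without GCE/+ replicate 2 and without GCE/GCE replicate 1. The 285 calls were 145 lower in GCE/GCE cells, 0.927%, and 140 higher, 0.895%. With 2 samples against 2, the smallest p that an exact permutation test of 1 gene allows is 0.333, and each call depends on the spread that edgeR pools over genes. A fit without 1 sample compares 2 samples with 1, so only 1 genotype has replicates to give a spread, and this too is pooled over genes. Without GCE/GCE replicate 1, the standard error was 0.15 for *Csf1*, *Kitl* and *Il11ra1* alike, against 0.11, 0.10 and 0.23 in the main test. For these genes the spread of their own replicates thus counted for little there. The calls and adjusted p of a fit without 1 sample are not like for like with those of the main test.

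Among the 10 cytokine genes, *Kitl* and *Tnf* were downregulated in GCE/GCE cells and none was upregulated, beside 0.927% and 0.895% of all tested genes. Each GCE/GCE sample was lower than each GCE/+ sample for 5 genes, *Csf1*, *Il1b*, *Tnf*, *Kitl* and *Osm*, and for 19.1% of all tested genes. Both lay above for 1 gene, *Il33*, against 19.2% of all tested genes, and the groups overlapped for *Il34*, *Il6*, *Lif* and *Il11*. The median log2 fold change of the 10 genes was -0.28, beside 0.00 over all tested genes, and their range was -0.74 to 0.53. An unadjusted p under 0.05 was found for 4 of the 10 and for 1640 of the 15645 tested genes. DESeq2, the tool of the study, called 3 of the 10, *Il1b* beside *Kitl* and *Tnf*, with 3.25% of its 15439 tested genes called.

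**Figure D1:**
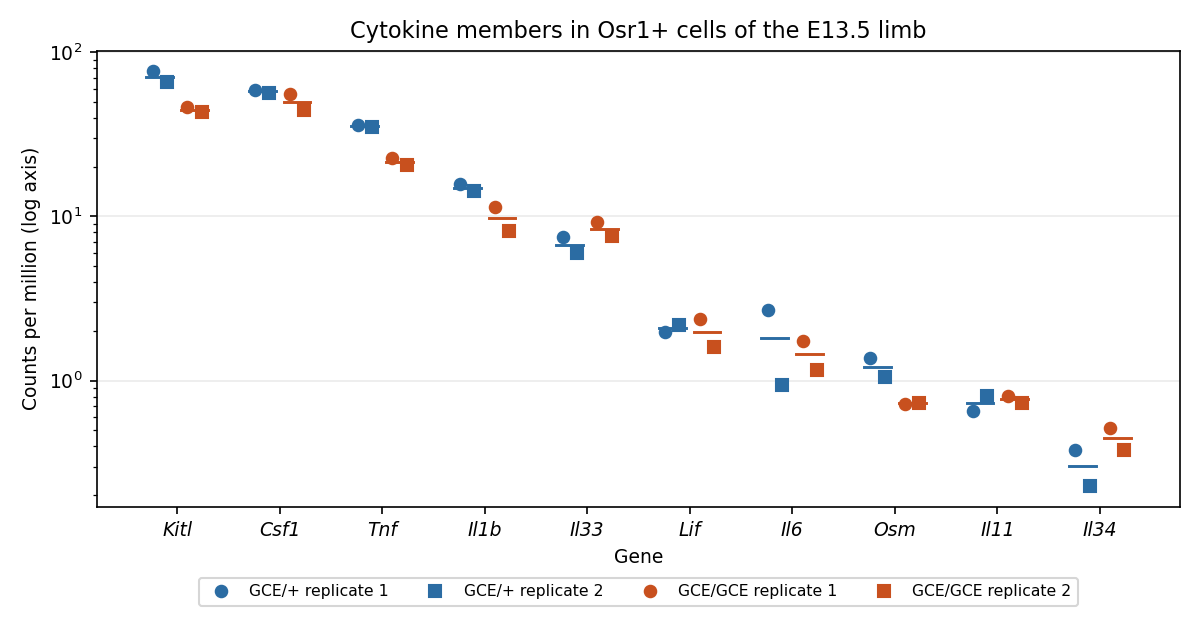
CPM of the 10 cytokine genes (log axis) in each of the 4 samples, ordered by their mean in GCE/+ cells. Circles are replicate 1, squares replicate 2 and short lines the mean of a genotype. *Kitl*, *Tnf* and *Il1b* show the GCE/GCE points (orange) below the GCE/+ points (blue), while those of *Lif*, *Il6*, *Il11* and *Il34* overlap.

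*Kitl* was 1 of the 2 cytokine genes that were downregulated. It lies on chromosome 10 of GRCm38 from 100015630 to 100100416, on the plus strand. It had 76.4 and 65.7 CPM in GCE/+ replicates 1 and 2, and 46.1 and 43.1 CPM in GCE/GCE replicates 1 and 2. The genotypes did not overlap, and the gap between them exceeded the gap between replicates of either. The GCE/GCE level was 62.8% of the GCE/+ level (log2 fold change -0.67, 95% interval -0.90 to -0.44, adjusted p = 0.0324, Benjamini-Hochberg, edgeR quasi-likelihood F-test). The call held in all 16 alternative settings, leaving out each sample included, with log2 fold changes from -0.78 to -0.57 and adjusted p from 7.78e-06 to 0.0813.

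*Kit*, the receptor gene of this ligand, had 14.9 and 15.2 CPM in control GCE/+ cells against 14.9 and 13.8 CPM in mutant GCE/GCE cells, and was not called (log2 fold change -0.07, 95% interval -0.33 to 0.20). The groups overlapped. The mast cell list holds 8 genes, *Kit* among them. Of the 5 that could be tested, 0 were called in either direction by edgeR and 0 by DESeq2, and 0 had an unadjusted p under 0.05. Their level summed to 30.5 and 22.0 CPM in GCE/+ cells and to 24.9 and 22.1 CPM in GCE/GCE cells, and *Cpa3*, a mast cell protease, was read in every sample at 3.4 to 9.16 CPM. The protease genes *Mcpt4*, *Tpsb2* and *Tpsab1* were at or under 0.608 CPM in every sample.

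*Tnf* lies on chromosome 17 of GRCm38 from 35199381 to 35202007, on the minus strand. It had 36.2 and 35.0 CPM in GCE/+ replicates 1 and 2 and 22.7 and 20.5 CPM in GCE/GCE replicates 1 and 2. The replicates of each genotype lay close together and the genotypes were well apart. The GCE/GCE level was 60.8% of the GCE/+ level (log2 fold change -0.72, 95% interval -0.95 to -0.49, adjusted p = 0.0275, Benjamini-Hochberg, edgeR quasi-likelihood F-test). It stayed called in all 16 alternatives, with log2 fold changes from -0.80 to -0.65 and adjusted p from 6.19e-06 to 0.074.

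Of the receptors for TNF, *Tnfrsf1a*, the widely expressed one, had 104 and 95.6 CPM in control GCE/+ cells against 89.6 and 77.2 CPM in mutant GCE/GCE cells, and was not called (log2 fold change -0.26, 95% interval -0.48 to -0.03, adjusted p = 0.367). *Tnfrsf1b*, which is found mostly on leukocytes and endothelium, had 6.86 and 8.68 CPM against 5.51 and 3.45 CPM, and was not called either (log2 fold change -0.79, 95% interval -1.33 to -0.26, adjusted p = 0.208). Both genes had both GCE/GCE samples below both GCE/+ samples. The result for *Tnfrsf1b* turned on the GCE/GCE replicates, since the log2 fold change was -1.18 without replicate 1, where the gene was called, and -0.49 without replicate 2. DESeq2 called it as well. Its adjusted p ranged from 0.00033 to 0.565 over the alternatives.

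*Kitl* and *Tnf* are the only cytokine genes of the 10 that were called, so the sequences around their start sites are shown. Each runs from 250 bases before to 50 bases after the RefSeq start (GRCm38.p6), with the TATA box letters TATAAA in capitals. That of *Kitl* is chr10:100015571-100015870 on the plus strand and that of *Tnf* is chr17:35201958-35202257 on the minus strand.
Kitl: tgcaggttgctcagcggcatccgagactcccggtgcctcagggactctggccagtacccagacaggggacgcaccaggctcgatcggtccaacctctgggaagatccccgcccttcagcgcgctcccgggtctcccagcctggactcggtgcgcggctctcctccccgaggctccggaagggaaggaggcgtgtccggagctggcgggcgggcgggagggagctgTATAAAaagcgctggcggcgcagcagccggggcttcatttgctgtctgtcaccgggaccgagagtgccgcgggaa
Tnf: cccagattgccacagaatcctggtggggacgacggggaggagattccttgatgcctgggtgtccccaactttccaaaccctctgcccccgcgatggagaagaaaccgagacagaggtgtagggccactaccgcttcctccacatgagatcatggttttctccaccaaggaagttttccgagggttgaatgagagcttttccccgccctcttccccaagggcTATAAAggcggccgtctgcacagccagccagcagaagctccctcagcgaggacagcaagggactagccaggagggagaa

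In *Kitl* the TATAAA begins 25 bases before the start site and in *Tnf* 29 bases before it. A search of both strands found TATAAA in 4473 of the 32851 promoter windows of the RefSeq table, or 13.6%. Windows were given for 8 of the 10 cytokine genes, 10 windows in all, and 5 of these windows, from 4 genes, held it. Besides *Kitl* and *Tnf* these were *Il1b*, at 31 bases before the start, and both windows of *Il33*. GCTACTG, the core of the DNA motif known for Osr proteins, was in 0 of the 10 windows and in 3.7% of all windows. TGANTCA, the AP-1 motif, which is the same on both strands, was in 3 of the 10, those of *Il6*, *Lif* and 1 of *Il11*, and in 7.81% of all windows. The motifs were read from letters only, and the count tables hold no measurement at these sites. *Il34* and *Osm* had no window in the table.

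**Figure D2:**
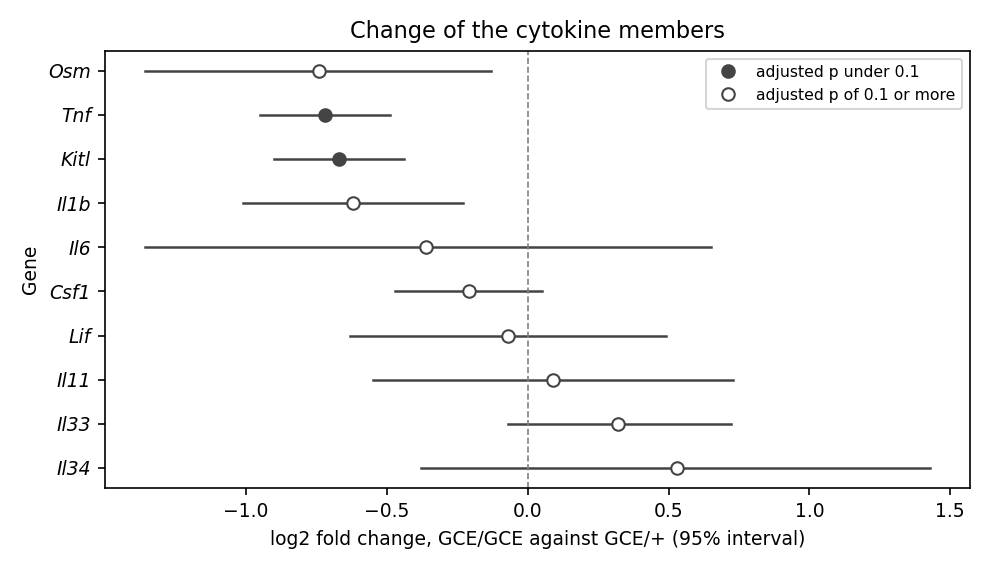
Log2 fold change of the 10 cytokine genes in GCE/GCE against GCE/+ cells (horizontal axis, points) with 95% intervals (lines). Filled points passed an adjusted p of 0.1 in edgeR's quasi-likelihood test, and these are *Tnf* and *Kitl*. *Osm* lies as far from 0 as *Tnf* but has an interval that is wider.

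*Csf1*, the main growth factor of macrophages, was not called. It lies on chromosome 3 of GRCm38 from 107741048 to 107760469, on the minus strand, and had 59.3 and 56.4 CPM in control GCE/+ cells against 55.6 and 44.5 CPM in mutant GCE/GCE cells. GCE/GCE replicate 1 lay just under the GCE/+ samples and replicate 2 further down. The log2 fold change was -0.21 with a 95% interval of -0.47 to 0.05 (adjusted p = 0.629). *Csf1* passed the threshold in 0 of the 16 alternatives. *Il34*, the other ligand of CSF1R, lies on chromosome 8 of GRCm38 from 110741829 to 110805924, on the minus strand. It had few reads, with 23 and 12 counts in GCE/+ cells and 30 and 23 counts in GCE/GCE cells. The exact Poisson 95% intervals of the GCE/+ samples were 0.239 to 0.567 CPM and 0.119 to 0.401 CPM. A difference was not detectable at this depth (log2 fold change 0.53, 95% interval -0.38 to 1.43). Annotated antisense genes share 22 and 75 exon bases with *Il34*, and since the libraries did not keep strand, reads there cannot be assigned.

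*Csf1r*, the receptor gene of both ligands, was downregulated. It had 60.7 and 67.2 CPM in control GCE/+ cells against 41.4 and 24.1 CPM in mutant GCE/GCE cells, with no overlap but with the GCE/GCE samples far apart. Its log2 fold change was -0.97 (95% interval -1.45 to -0.48, adjusted p = 0.0959, Benjamini-Hochberg, edgeR quasi-likelihood F-test). The call is close to the threshold. It held in 7 of the 16 alternatives, with adjusted p from 5.2e-15 to 0.277, and DESeq2 did not call it (adjusted p = 0.277). It was lost without GCE/+ replicate 1 (adjusted p = 0.145) and without GCE/+ replicate 2 (adjusted p = 0.106), and the log2 fold change was -0.63 without GCE/GCE replicate 2 and -1.41 without GCE/GCE replicate 1. *Csf1r* shares 873 exon bases with *Hmgxb3* on the opposite strand. The difference in change between *Csf1r* and *Csf1* was not tested. *Ptprz1* and *Sdc1*, which have been described as further binding partners of IL-34, were not called. *Ptprz1* had 11.3 and 12.3 CPM in control GCE/+ cells against 13.9 and 11.1 CPM in mutant GCE/GCE cells, and *Sdc1* had 212 and 202 CPM against 194 and 207 CPM.

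*Csf1r* is also a marker of macrophages, and most other macrophage genes were downregulated too. Of 22 macrophage markers, *Csf1r* included, 17 were called lower in GCE/GCE cells and 0 higher, beside 0.927% and 0.895% of all tested genes. For 21 of the markers each mutant sample was lower than either control sample, against 19.1% of all tested genes. *Cd163* was the exception. Without GCE/+ replicate 1 the number called was 11. The 22 markers had a median log2 fold change of -0.97, beside 0.00 over all tested genes, and a range of -1.27 to 0.53. The level summed to 480 and 489 CPM in GCE/+ cells and to 299 and 211 CPM in GCE/GCE cells, and 0 of the 22 were at 0 in every sample. None of the defining genes was at 0 in any sample, as *Adgre1*, *Ptprc* and *C1qa* had at least 3.45 CPM throughout. The range of the markers passes 0 only through *Cd163*, at 0.153 to 0.31 CPM. The called markers ran from -0.82 (*Mrc1*) to -1.27 (*Itgam*). The uncalled *Aif1*, *Lyz2*, *Fcgr1* and *Cd68* were at -0.91, -0.68, -0.66 and -0.59. *Tnf* at -0.72 and *Il1b* at -0.62 were nearer to 0 than the called markers and the marker median, and this difference was not tested. The part of the macrophage transcripts in the values of *Tnf*, *Il1b*, *Csf1r* and the inflammasome genes was not tested. In bulk samples such as these, fewer cells of a type and less RNA per cell cannot be told apart. Of 8 endothelial markers 0 were called by edgeR and 1 by DESeq2, beside 1.82% and 3.25% of all genes each tool tested. An unadjusted p under 0.05 was found for 4 of the 8 and for 1640 of the 15645 tested genes. The endothelial markers had a median log2 fold change of -0.41 and sums of 120 and 96.5 CPM against 97.2 and 80.8 CPM. Of 8 cartilage markers 2 were called higher, beside 0.895% of all tested genes. All 8 had an unadjusted p under 0.05. All 8 also had both GCE/GCE samples above both GCE/+ samples, beside 19.2% of all tested genes. The median of their log2 fold changes was 0.97, with sums of 567 and 918 CPM against 1287 and 1400 CPM.

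**Figure D3:**
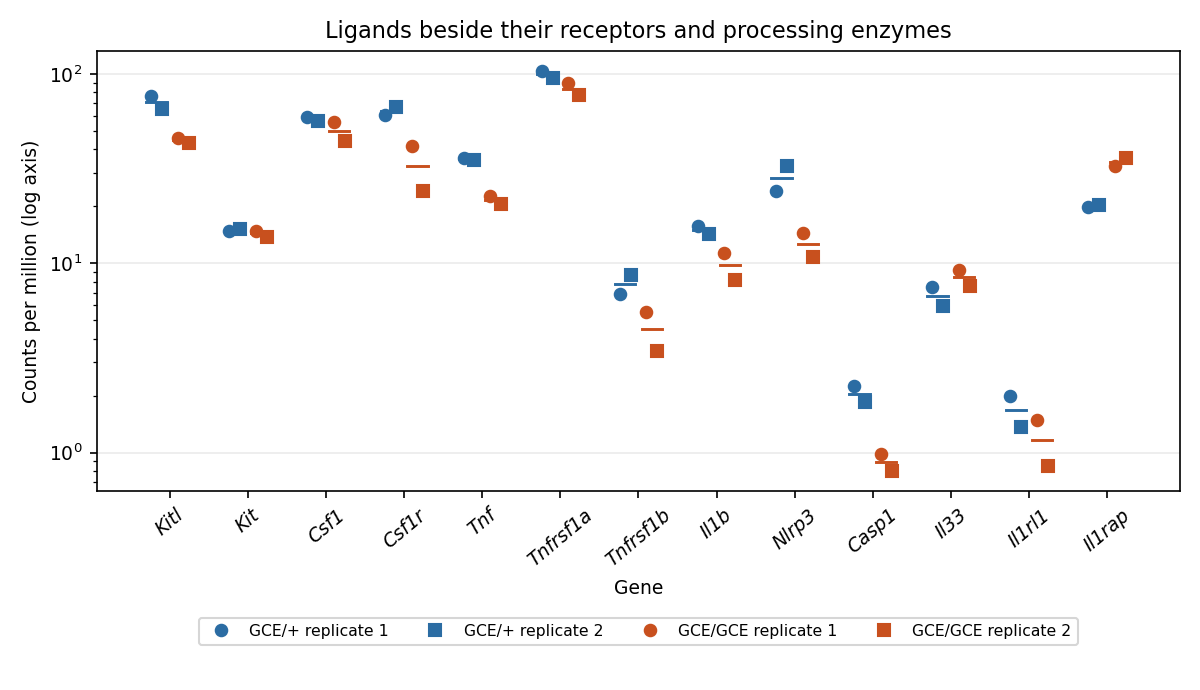
CPM (log axis) of cytokine genes beside receptor and processing genes in each sample, with circles for replicate 1, squares for replicate 2 and short lines for the mean of a genotype. *Kitl* lies lower in GCE/GCE cells (orange) than in GCE/+ cells (blue) while *Kit* overlaps. *Csf1r* lies lower, *Csf1* lies slightly lower and was not called, and *Il1rap* lies higher.

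*Il1b* lies on chromosome 2 of GRCm38 from 129364570 to 129371139, on the minus strand. It had 15.7 and 14.2 CPM in GCE/+ replicates 1 and 2 and 11.4 and 8.15 CPM in GCE/GCE replicates 1 and 2. The genotypes did not overlap, and GCE/GCE replicate 2 was the lowest. The log2 fold change of -0.62 (95% interval -1.01 to -0.23) did not pass edgeR's quasi-likelihood test after Benjamini-Hochberg adjustment (adjusted p = 0.179). It passed in 2 of the 16 alternatives, DESeq2 (adjusted p = 0.0458) and the fit without GCE/GCE replicate 1, where the log2 fold change was -0.88 (adjusted p = 0.00143). Without GCE/GCE replicate 2 the log2 fold change was -0.39 (adjusted p = 0.629). These were the lowest and the highest adjusted p of the 16 alternatives.

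Pro-IL-1β is cut by caspase-1 in the inflammasome. *Nlrp3*, which encodes an inflammasome sensor, was downregulated from 24.0 and 32.7 CPM in GCE/+ cells to 14.4 and 10.8 CPM in GCE/GCE cells (log2 fold change -1.17, 95% interval -1.59 to -0.75, adjusted p = 0.0328, Benjamini-Hochberg, edgeR quasi-likelihood F-test). *Casp1*, the protease, was downregulated from 2.25 and 1.84 CPM to 0.982 and 0.8 CPM (log2 fold change -1.20, 95% interval -1.76 to -0.64, adjusted p = 0.0765). The groups did not overlap for either gene. *Nlrp3* was called in all 16 alternatives and *Casp1* in 11, with adjusted p for *Casp1* from 0.0133 to 0.25. The call of *Casp1* was lost without GCE/+ replicate 1 (adjusted p = 0.25) and without GCE/GCE replicate 2 (adjusted p = 0.135).

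Among the receptors of the IL-1 family, the co-receptor gene *Il1rap* was upregulated. Its protein joins the receptors of IL-1 and of IL-33 and is needed for both to signal. *Il1rap* had 19.8 and 20.3 CPM in control GCE/+ cells against 32.7 and 36.1 CPM in mutant GCE/GCE cells, without overlap and with close replicates (log2 fold change 0.78, 95% interval 0.55 to 1.01, adjusted p = 0.024, Benjamini-Hochberg, edgeR quasi-likelihood F-test). The call held in all 16 alternatives, with log2 fold changes from 0.66 to 0.84. An annotated antisense gene, *Gm20319*, shares 353 exon bases with it, and reads there cannot be assigned without strand. The signalling receptor *Il1r1* had 30.4 and 25.9 CPM against 31.1 and 32.2 CPM and was not called (log2 fold change 0.17, 95% interval -0.08 to 0.42). The decoy receptor *Il1r2* was at 2.45 CPM or less in all samples and was not called.

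*Il1rn*, the gene of the IL-1 receptor antagonist, had 7.75 and 10.5 CPM in control GCE/+ cells against 5.08 and 5.65 CPM in mutant GCE/GCE cells. Its log2 fold change of -0.76 (95% interval -1.17 to -0.35) narrowly missed the threshold (adjusted p = 0.117, Benjamini-Hochberg, edgeR quasi-likelihood F-test). It passed in 5 of the 16 alternatives, among them DESeq2 and the fits without GCE/+ replicate 1 (-0.97), without GCE/GCE replicate 1 (-0.69) and without GCE/GCE replicate 2 (-0.84), and its adjusted p ran from 0.0197 to 0.193.

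*Il33* lies on chromosome 19 of GRCm38 from 29925114 to 29960718, on the plus strand, and was the only one of the 10 with both GCE/GCE samples higher. It had 7.49 and 5.97 CPM in control GCE/+ cells against 9.23 and 7.63 CPM in mutant GCE/GCE cells. The gap between the highest GCE/+ and the lowest GCE/GCE sample was small against the gap between replicates. The log2 fold change of 0.32 (95% interval -0.07 to 0.72) did not pass the test (adjusted p = 0.62), and it passed in 0 of the 16 alternatives. Its receptor gene *Il1rl1* had 1.99 and 1.36 CPM against 1.48 and 0.849 CPM, with overlap, and was not called (log2 fold change -0.53, 95% interval -1.27 to 0.20).

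The 4 genes of the gp130 family, *Il6*, *Lif*, *Osm* and *Il11*, were all low, at 2.71 CPM or less in every sample. None was called in the main test or in any of the 16 alternatives. *Osm* lies on chromosome 11 of GRCm38 from 4236420 to 4241026, on the plus strand. It had 84 and 55 counts in GCE/+ cells, or 1.38 and 1.05 CPM, and 42 and 45 counts in GCE/GCE cells, or 0.723 and 0.735 CPM. Both GCE/GCE samples were lower, with a log2 fold change of -0.74, about that of *Tnf*, but a 95% interval of -1.36 to -0.13 (adjusted p = 0.336, Benjamini-Hochberg, edgeR quasi-likelihood F-test).

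*Il6*, on chromosome 5 of GRCm38 from 30013114 to 30019981 and on the plus strand, varied most between replicates. It had 2.71 and 0.937 CPM in GCE/+ replicates 1 and 2 and 1.74 and 1.16 CPM in GCE/GCE replicates 1 and 2, so that both GCE/GCE samples lay between the GCE/+ samples. Its log2 fold change was -0.36 with a 95% interval of -1.36 to 0.65. The sign turned on 1 sample, since it was 0.62 without GCE/+ replicate 1 and -0.90 without GCE/+ replicate 2. That first sample also had the most transcripts of the erythroid list, at 462 CPM against 158 to 311 CPM in the others, and of the mast cell list, and their part in the *Il6* value was not tested.

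*Lif*, which lies on chromosome 11 of GRCm38 from 4257557 to 4272514 on the plus strand, had 1.99 and 2.18 CPM in control GCE/+ cells against 2.38 and 1.6 CPM in mutant GCE/GCE cells. The GCE/GCE samples lay on either side of the GCE/+ samples (log2 fold change -0.07, 95% interval -0.63 to 0.49). *Il11*, on chromosome 7 of GRCm38 from 4772373 to 4782859 and on the minus strand, had 0.657 and 0.803 CPM in control GCE/+ cells against 0.81 and 0.735 CPM in mutant GCE/GCE cells, also with overlap (log2 fold change 0.09, 95% interval -0.55 to 0.73). The sign of *Lif* turned without GCE/GCE replicate 2 (0.19) and that of *Il11* without GCE/+ replicate 1 (-0.06).

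The receptor chain genes *Il6st*, *Lifr* and *Osmr* of this family were not called. *Il6st*, the gp130 gene, had 243 and 321 CPM in control GCE/+ cells against 318 and 292 CPM in mutant GCE/GCE cells. *Lifr*, which pairs with gp130 to bind LIF, had 69.3 and 66.3 CPM against 74.2 and 70.7 CPM. *Osmr*, the OSM-specific chain, had 4.22 and 4.63 CPM against 5.13 and 3.25 CPM. The 95% intervals of their log2 fold changes ran from -0.18 to 0.41 for *Il6st*, from -0.09 to 0.28 for *Lifr* and from -0.60 to 0.45 for *Osmr*. With an offset for transcript length, *Il6st* was at -0.03 and *Lifr* at -0.05.

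The ligand-specific chains for IL-6 and IL-11 each depended on a sample. *Il6ra* had 4.94 and 6.2 CPM in control GCE/+ cells against 4.12 and 2.25 CPM in mutant GCE/GCE cells, with no overlap, and was not called (log2 fold change -0.81, adjusted p = 0.292, Benjamini-Hochberg, edgeR quasi-likelihood F-test). It was called in 1 of the 16 alternatives, without GCE/GCE replicate 1, at -1.31 (adjusted p = 0.000317), and was -0.43 without GCE/GCE replicate 2 (adjusted p = 0.871, the highest over the alternatives). An antisense gene, *Gm42809*, shares 242 exon bases with *Il6ra*. *Il11ra1* had 78.9 CPM in GCE/+ replicate 1 and 42.6, 44.0 and 45.0 CPM in GCE/+ replicate 2 and the GCE/GCE replicates. The 3 last samples lay together and the first stood alone. The log2 fold change was -0.45 (adjusted p = 0.6), 0.06 without GCE/+ replicate 1 and -0.83 without GCE/+ replicate 2, where it was called (adjusted p = 0.00474). Without GCE/GCE replicate 1 the log2 fold change was -0.44 and without GCE/GCE replicate 2 it was -0.47, about that of the main test. Those 2 fits keep both GCE/+ samples, and their calls came with a standard error of 0.15, against 0.23 in the main test. The adjusted p reached 1.0 in other alternatives. *Il11ra1* has a near-identical copy, *Il11ra2*, and the split of reads between them is uncertain.

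Of the 16 receptor and antagonist genes, 1 was called lower and 1 higher, beside 0.927% and 0.895% of all tested genes. Both GCE/GCE samples were lower for 5, higher for 3 and overlapping for 8, beside 19.1% lower and 19.2% higher of all tested genes, with a median log2 fold change of -0.17. Without GCE/GCE replicate 1, 6 were called, and without GCE/GCE replicate 2, 4.

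**Figure D4:**
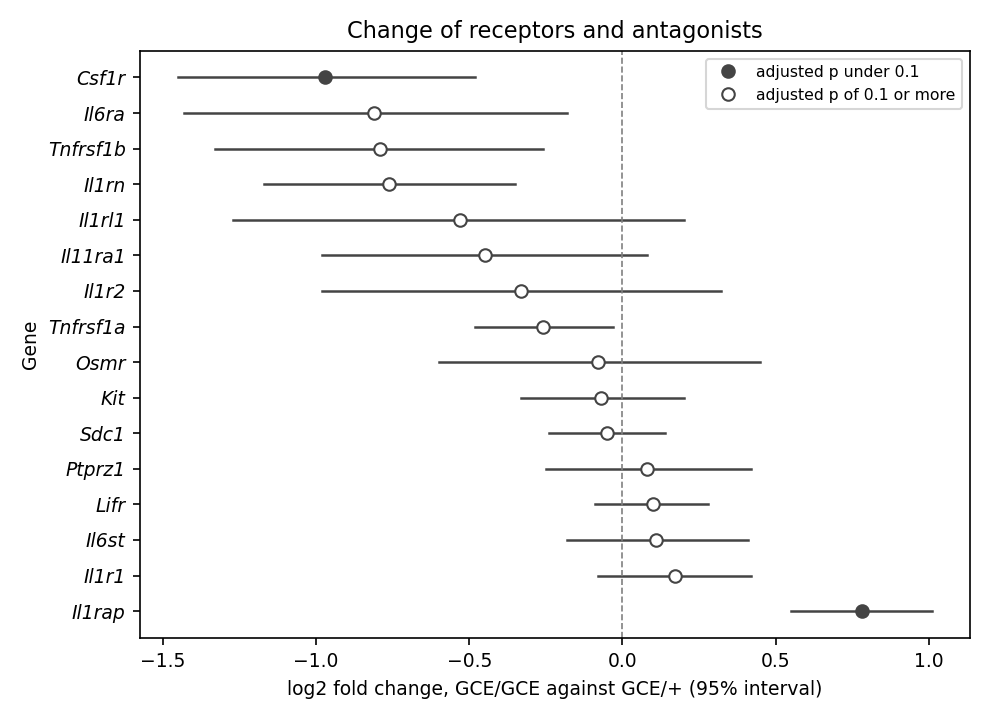
Log2 fold change of the 16 receptor and antagonist genes in GCE/GCE against GCE/+ cells (horizontal axis, points) with 95% intervals (lines). Filled points passed an adjusted p of 0.1 in edgeR's quasi-likelihood test. *Csf1r* is the filled point on the lower side and *Il1rap* the one on the higher side.

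Levels of different genes can be compared only per transcript length, so CPM were divided by the kilobases of exon. In GCE/+ cells *Tnf* was then highest of the 10, at a mean of 21.7 CPM per kilobase, which placed it at percentile 77.9 of all tested genes. *Kitl* at 12.6 and *Csf1* at 12.3 CPM per kilobase followed and did not differ beyond their spread, and *Il1b* was next at 11.0 and *Il33* at 2.58. *Il6* (0.751), *Osm* (0.535) and *Lif* (0.514 CPM per kilobase) overlapped between neighbours. *Il11* at 0.351 and *Il34* at 0.166 CPM per kilobase were the lowest, with *Il34* at percentile 7.15.

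In GCE/GCE cells the order of the per-kilobase levels changed in the middle. *Tnf* was still first, at 13.2, while *Csf1* was second at 10.6, above *Kitl* at 7.89 and *Il1b* at 7.21 CPM per kilobase, which overlapped. *Il33* followed at 3.23. *Il6* (0.597) and *Lif* (0.491) overlapped, and *Il11* at 0.371 then stood above *Osm* at 0.321 and *Il34* at 0.244 CPM per kilobase. *Kitl* and *Csf1* lay apart in GCE/GCE cells and overlapped in GCE/+ cells.

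Downstream of these receptors, most genes were not called. Of 29 signalling and processing genes, 2 were called lower, *Nlrp3* and *Casp1*, and 0 higher, beside 0.927% and 0.895% of all tested genes, and their median log2 fold change was -0.08. Without a sample, 4 were called (GCE/GCE replicate 1 left out) or 1 (GCE/+ replicate 1 or GCE/GCE replicate 2 left out). The 5 with the highest mean CPM were all uncalled. *Stat3*, the transcription factor of the gp130 family, had 303 and 393 CPM in control GCE/+ cells against 388 and 340 CPM in mutant GCE/GCE cells. *Socs3*, a feedback inhibitor that STAT3 induces, had 211 and 173 CPM against 194 and 160 CPM. *Jak1*, the kinase bound to gp130, had 192 and 201 CPM against 189 and 177 CPM, and both GCE/GCE samples were lower. The phosphatase gene *Ptpn11* had 231 and 271 CPM against 269 and 254 CPM. *Adam10*, a protease that sheds membrane-bound ligands and receptors, had 167 and 190 CPM against 176 and 175 CPM. Between them their log2 fold changes were -0.12 to 0.06.

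Other cytokines were mostly scarce. Of 57 further interleukin, TNF family, colony-stimulating factor and interferon genes, 21 were too low to test, with at most 13 counts in a sample, and 1, *Cd40lg*, had no count in any sample, which allows up to 0.0574 CPM in the smallest library. Of the 36 that were tested, 0 were called lower and 1 higher, a share near the 1.82% called of all tested genes, with a median log2 fold change of -0.17. Without GCE/+ replicate 1, 0 were called, and without GCE/GCE replicate 1, 3. The one that was upregulated was *Il7*, a growth factor of lymphocytes, with 21 and 13 counts in GCE/+ cells and 48 and 74 counts in GCE/GCE cells, or 0.345 and 0.249 CPM against 0.827 and 1.21 CPM. Its log2 fold change was 1.76 (95% interval 0.95 to 2.57, adjusted p = 0.0736, Benjamini-Hochberg, edgeR quasi-likelihood F-test). The call held in 10 of the 16 alternatives, with log2 fold changes from 1.46 to 2.02 and adjusted p from 0.000848 to 0.161. It was lost without GCE/+ replicate 1 (2.02, adjusted p = 0.154), without GCE/+ replicate 2 (1.56, adjusted p = 0.107) and without GCE/GCE replicate 2 (1.46, adjusted p = 0.114). An antisense gene, *Gm16685*, shares 105 exon bases with *Il7*.

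Of the genes of this list with the highest mean CPM, the following were not called. *Mif*, a macrophage migration inhibitory factor made by many cells, had 106 and 77.9 CPM in control GCE/+ cells against 93.2 and 102 CPM in mutant GCE/GCE cells. *Tnfsf9* had 13.7 and 12.4 CPM against 12.7 and 11.2 CPM, and *Ctf1*, which signals through gp130 and LIFR, 9.03 and 8.53 CPM against 9.08 and 8.77 CPM. *Tnfsf12*, the gene of TWEAK, had 8.74 and 7.25 CPM against 6.34 and 5.7 CPM, with no overlap (log2 fold change -0.41, adjusted p = 0.391), and shares 728 exon bases with the read-through gene *Tnfsfm13*.

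**Figure D5:**
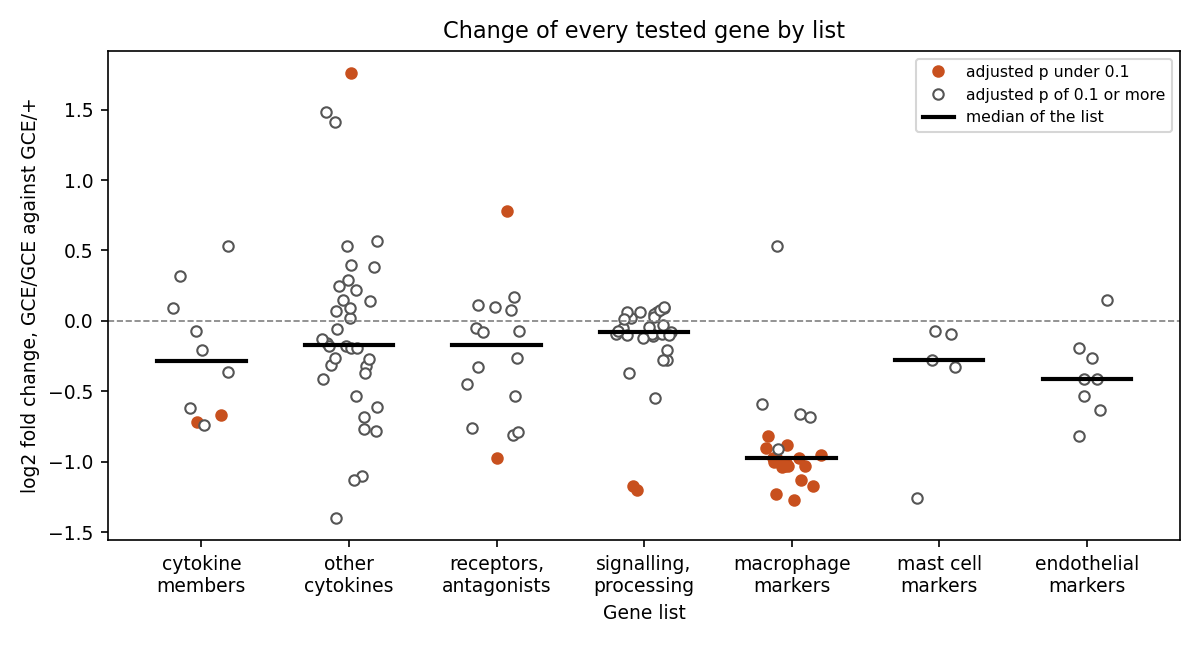
Log2 fold change in GCE/GCE against GCE/+ cells (vertical axis) of every tested gene of 7 lists, with the median of a list as a black line and genes past an adjusted p of 0.1 filled. The cytokine genes have a median of -0.28 and the macrophage markers one of -0.97, and the isolated filled point at the top is *Il7*.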

How the data were processed

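RNA of Osr1+ cells from 2 Osr1 GCE/+ and 2 Osr1 GCE/GCE embryos was sequenced with unstranded TruSeq v2 libraries and 50-bp paired-end reads. TopHat2, guided by the UCSC gene model, was used by the authors for alignment to mm9, and HTSeq (intersection-strict) for counting. What they deposited are unnormalized fragment counts, 1 per gene symbol. Versions of these tools are not given in the sources used here. Depth was 52121596 to 61402140 counts per sample, and 3 counts equal 0.049 to 0.0574 CPM. Replicates differed beyond counting noise, with a chi-square per gene of 30.8 and 25.9.

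Genotypes were taken from the sample titles. Genes were filtered with filterByExpr, normalized by TMM and tested with edgeR 4.0.16 (quasi-likelihood, R 4.3.3, adjusted p under 0.1). The biological coefficient of variation was 0.107 and the prior degrees of freedom were 6.381. Standard errors were derived from the F statistic. Exon lengths and coordinates came from a GRCm38 annotation by symbol (98.9% of tested genes), promoters from RefSeq. The counts do not hold coordinates, and none were converted from mm9. Fits were tested on simulated data. The 10 cytokine genes and all lists were chosen with earlier results of these data known. Named in the text were all cytokine genes and all receptors and antagonists, the called genes and the 5 highest by mean CPM of the other lists, *Osr1*, and marker genes as examples. Other genes named by values seen are said to be so. One gene that this rule names is not reported here. Likeness of pattern was not ranked, as 4 samples are too few.

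The alternatives were DESeq2 1.42.0, other normalizations (RLE, upper quartile, totals), other filters, legacy and robust fits, an adjusted p under 0.05, the replicate number as a block, an offset for transcript length without and with that block, and leaving out each sample. Leaving out a sample leaves 2 samples against 1, with replicates in 1 genotype only. Figures used matplotlib 3.10.9.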

Additional observations from a re-analysis of the deposited data

How the results depend on the processing

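Over 40 named genes and 16 alternatives, 580 of 640 values kept their direction and their side of the threshold, 20 lost and 17 gained a call, and 23 changed sign. For the 10 cytokine genes these were 155 of 160, 0, 2 and 3. No cytokine call was lost. The causes of these moves were not tested.

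The genes called over all tested genes were 285, and 502 with DESeq2, 127 without a filter, 130 at an adjusted p under 0.05, and 199 to 961 when a sample was left out (961 without GCE/+ replicate 2, 747 without GCE/GCE replicate 1). In the last case the calls were 38.8% higher, against 67.2% without GCE/+ replicate 2. Of the other cytokines, 1 was called, and 3 with DESeq2, 0 without a filter, 0 at 0.05, 0 with the length offset and the replicate block, and 0 to 3 without a sample. Of the receptors and antagonists 2 were called, and 1 with upper quartile normalization, without a filter, with robust fits, at 0.05 and with the length offset, with or without the block. It was 2 to 6 without a sample (6 without GCE/GCE replicate 1, 4 without GCE/GCE replicate 2). Of the signalling and processing genes 2 were called, and 1 without a filter, at 0.05 and with the length offset and block, and 1 to 4 without a sample (4 without GCE/GCE replicate 1). The macrophage markers called were 17, and 10 without a filter, 10 at 0.05, 9 with the length offset and block, and 11 to 20 without a sample (11 without GCE/+ replicate 1).

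Signs changed for uncalled genes. With the length offset, *Ptprz1* was at -0.05, *Il6st* at -0.03 and *Lifr* at -0.05, and with the block added at -0.06, -0.02 and -0.04. Leaving out a sample gave ranges across 0 of -0.90 to 0.62 for *Il6*, -0.38 to 0.19 for *Lif*, -0.06 to 0.23 for *Il11*, -0.09 to 0.24 for *Ptprz1*, -0.08 to 0.33 for *Il6st*, -0.64 to 0.09 for *Il1r2*, -0.45 to 0.22 for *Osmr*, -0.83 to 0.06 for *Il11ra1*, -0.11 to 0.32 for *Mif*, -0.02 to 0.06 for *Ctf1*, -0.12 to 0.27 for *Stat3*, -0.06 to 0.18 for *Ptpn11*, -0.27 to 0.03 for *Socs3* and -0.12 to 0.07 for *Adam10*.

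The labels number the samples of each genotype 1 and 2. The differences between replicates 1 and 2 of the genotypes had a correlation of -0.0182 across 15645 genes. This value rests on 1 difference a genotype and cannot exclude a litter, sort or library batch shared by samples of the same number. With the replicate block 290 genes were called, 2 of them cytokine genes, *Kitl* and *Tnf*, and *Il1rn* gained a call (adjusted p = 0.0954).

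With 2 samples a genotype, the 95% intervals of *Osm*, *Il6*, *Il11* and *Il34* were wide. For *Il34* the counts were few, and for *Il6* the GCE/+ replicates differed beyond counting error.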

Other observations

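The genes next to *Tnf* and *Lif*, chosen here for their position after the values were seen, are cytokine genes too. *Lta* and *Ltb*, which encode the lymphotoxins, lie 1157 and 3060 bases from *Tnf* on chromosome 17 of GRCm38, and had few reads. *Lta* had 0.0985 and 0.191 CPM in control GCE/+ cells against 0.189 and 0.0327 CPM in mutant GCE/GCE cells. *Ltb* had 0.197 and 0.191 CPM against 0.121 and 0.147 CPM. Neither was called (adjusted p = 0.957 and 0.846, Benjamini-Hochberg, edgeR quasi-likelihood F-test). *Osm* and *Lif* lie 16530 bases apart on chromosome 11. *Osm* was lower in both GCE/GCE samples and *Lif* overlapped, and neither was called.

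Of the 36 other cytokine genes tested, both GCE/GCE samples were lower for 11 and higher for 6. For the 29 signalling and processing genes these numbers were 8 and 2, beside 19.1% and 19.2% of all tested genes. The genes below are examples without overlap that edgeR did not call, also named after their values were seen. *Il1a* had 6.29 and 7.11 CPM in control GCE/+ cells against 4.44 and 3.43 CPM in mutant GCE/GCE cells (log2 fold change -0.77, adjusted p = 0.117), and DESeq2 called it. *Ebi3*, a subunit of IL-27 and IL-35, had 1.4 and 1.34 CPM against 0.81 and 0.784 CPM (log2 fold change -0.78, adjusted p = 0.24). *Tnfsf11*, the gene of the osteoclast factor RANKL, had 1.92 and 1.97 CPM against 2.46 and 3.15 CPM (log2 fold change 0.53, adjusted p = 0.407). *Nfkbia*, a target and inhibitor of NF-κB, had 93.2 and 93.3 CPM against 76.3 and 76.9 CPM (log2 fold change -0.28, adjusted p = 0.172).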
